A study of Mus musculus with 9 samples.

Results

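Solute carriers are membrane proteins that move nutrients, ions, metals and metabolites across the cell surface and across the membranes of organelles. Their genes were described in the mouse oral squamous cell cancer line ROC6 after knockout of Csmd3, which encodes a membrane protein of the CUB and sushi repeat type. The members were the genes whose symbol starts with Slc followed by a digit or an o, whose symbol occurs once in the table, and whose mean over the 9 libraries was 1 FPKM or more. FPKM is the number of sequenced fragments of a gene, scaled by transcript length and by the library's total of mapped fragments. This gave 91 of the 6965 uniquely named genes at that level, and of the 15620 rows in all. Another 78 solute carrier rows had lower means and were not tested. Just inside the limit were Slc7a7, Slc27a3 and Slc25a29 with means of 1.06, 1.14 and 1.28 FPKM, and just outside it Slc16a11, Slc16a3 and Slc25a47 with 0.954, 0.915 and 0.904 FPKM.

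There were 3 groups of 3 libraries each: ROC6 cells with a Csmd3 knockout by guide 2, ROC6 cells with a Csmd3 knockout by guide 1, and ROC6 wild-type control cells. All were grown in DMEM with fetal bovine serum, and no further treatment is named. The series describes the knockouts as clones, so each guide appears to be 1 clone, and a difference of that clone and an effect of the knockout cannot be told apart. The labels do not say whether the replicates of a group were grown separately, and the p-values therefore cover only library-to-library spread, possibly a technical one. Csmd3 itself was not analysed here.

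The carriers fall into families by sequence, and the family usually points to the cargo. Slc1, Slc7, Slc36 and Slc38 carry amino acids, Slc2 hexoses, Slc12 chloride with sodium or potassium, Slc20 phosphate, Slc30 zinc out of the cytosol, and Slc39 zinc into it. Slc25 forms the carriers of the inner mitochondrial membrane, and Slc35 supplies the Golgi with nucleotide sugars. In squamous carcinoma cells the family is best known for the glucose transporter Slc2a1 and for the amino acid importers that feed growth.

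Summed over uniquely named genes, the libraries held between 162630 and 168620 FPKM, of which the 91 carriers took 0.937% to 1.10%. The number of reads behind a value is unknown, since FPKM no longer carries it. In 15441 of 15446 uniquely named rows the means of guide 2 and guide 1 were either both above or both below the control mean. All 91 carriers follow that pattern, 39 with higher and 52 with lower means in both knockouts, so a shared direction is a property of the rows and not a result. The table thus appears to be a list selected for direction, in which a carrier that moved opposite ways with the guides would not be seen. The counts and shares given here, those between the guides included, describe that list and not every carrier the cells express. Of 12 squamous markers 5 had a row, and their summed level was between 92.5 and 97.0 FPKM with guide 2, 132 and 142 FPKM with guide 1, and 81.2 and 89.2 FPKM in the control. Perp, a desmosome-associated membrane protein, made up most of it, and Krt17, a basal squamous keratin, was near 0. The other 7 were not analysed here. The 4 simple epithelium keratins summed to between 4.60 and 6.36 FPKM with guide 2, 117 and 129 FPKM with guide 1, and 3.30 and 4.36 FPKM in the control, almost all of it Krt18. For fibroblasts 2 of 8 markers had a row, summing to between 7.89 and 9.08 FPKM with guide 2, 1.44 and 1.82 FPKM with guide 1, and 0.840 and 1.60 FPKM in the control. The 2 of 6 leukocyte markers with a row summed to between 1.81 and 2.67 FPKM with guide 2, 1.20 and 1.54 FPKM with guide 1, and 0.473 and 0.875 FPKM in the control. The 1 of 4 endothelial markers with a row, Kdr, lay between 0.0219 and 0.0992 FPKM with guide 2, 0.647 and 0.695 FPKM with guide 1, and 0 and 0.0150 FPKM in the control. How far such shifts bear on the carriers was not tested, and in bulk RNA fewer cells of a type and less RNA per cell cannot be told apart.

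Carrier genes went both ways in the knockouts, with more lower than higher. In the mean of both guides, 47 fell and 32 rose against the control at a limma adjusted p under 0.05, and 12 did not pass. Over all genes tested, 43.3% fell and 37.8% rose, so the share of carriers called, 86.8%, was near the 81.1% of all genes. The median log2 fold change of the carriers was -0.14, against -0.08 over all genes. With guide 2 tested alone, 38 carriers fell and 27 rose (71.4% called), against 33.5% and 31.9% of all genes (65.4% called). With guide 1 alone, 43 fell and 24 rose (73.6% called), against 37.9% and 30.2% of all genes (68.1% called). The guides share their control libraries. Both guides separately called 34 carriers lower and 19 higher, against 26.2% and 22.6% of all genes. The 6 knockout libraries were all above the 3 control libraries for 21 carriers and all below them for 34. These are 60.4% of the carriers, against 53.7% of all genes, 24.7% above and 29% below. Most changes were small, and 48 of the 79 called carriers moved by less than 0.5 log2 units. The 4 that rose by 1 log2 unit or more were Slco4a1, Slc25a24, Slc6a17 and Slc22a23, and the 4 that fell by as much were Slc1a3, Slc43a3, Slc7a2 and Slc20a1. Such sizes were reached by 4.71% of all genes upward and 3.8% downward. Slco4a1 and Slc6a17, with control means of 0.00336 and 0.227 FPKM, reached the mean of 1 FPKM only through the knockout libraries. Their rise is therefore tied to how members were chosen. Adding 0.1 in place of 1 before the log brought in Slc27a3 (1.13), Slc66a2 (1.16), Slc16a13 (1.09) and Slc46a3 (-1.19), and gave larger values for Slc6a17 (2.61 against 1.24) and Slco4a1 (5.30 against 2.47). With it, 6.36% of all genes rose and 5.23% fell by as much. With guide 2 alone, 5 carriers rose and 5 fell by as much, against 4.02% and 4.13% of all genes. With guide 1 alone, 8 rose and 3 fell, against 5.69% and 4.75%. Among those 8, Slco4a1, Slc25a45 and Slc27a3 reached the mean of 1 FPKM only through their guide 1 libraries. Leaving out carriers with a mean under 5 FPKM gave 17 higher (29.3%) and 37 lower (63.8%) of 58, against 39.7% and 46.6% of all genes with such means. All fold changes are on the log2(FPKM + 1) scale, on which low genes appear to change less than they do.

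**Figure D1:**
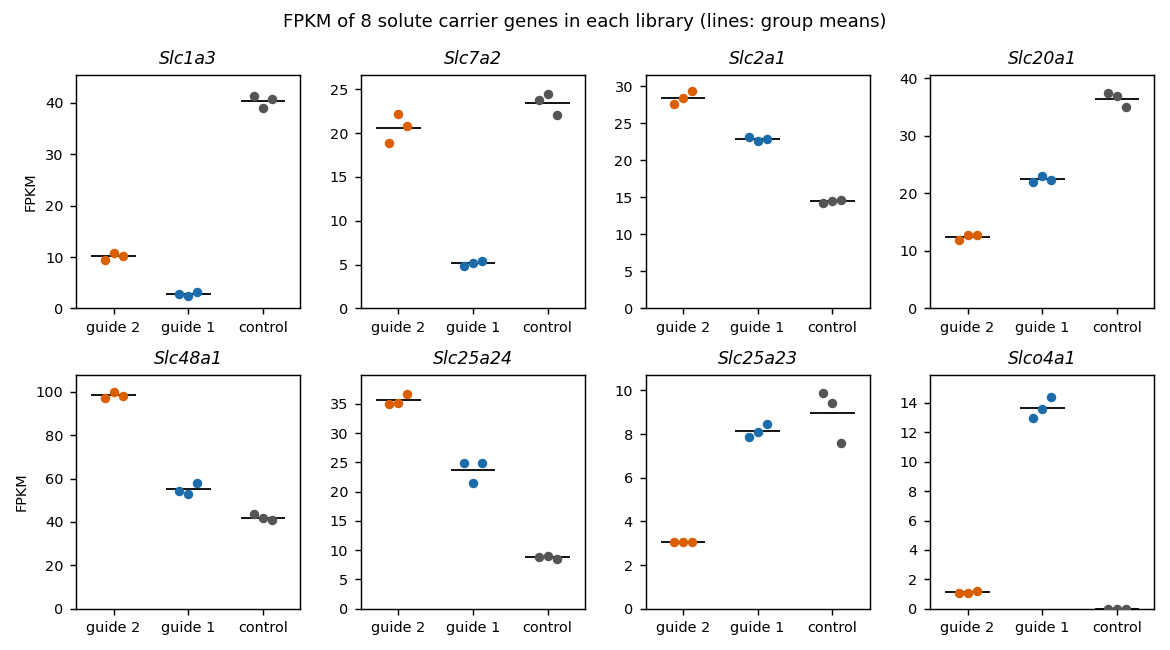
FPKM of 8 solute carrier genes in each of the 9 libraries, with guide 2, guide 1 and control from left to right. Points are libraries and lines are group means. Slc1a3 and Slc20a1 were lower and Slc2a1, Slc48a1, Slc25a24 and Slco4a1 higher in every knockout library than in every control library, while Slc7a2 and Slc25a23 overlapped the control in 1 of the guides.

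The promoters of the 4 carriers with the largest changes and a RefSeq promoter entry are printed because the results turn on these genes. Each window runs from 250 bases before to 50 bases after the annotated start in GRCm38.p6, on the strand of the gene, 5′ to 3′. Where a gene has more than 1 start, the most upstream one is shown. Capitals mark a match to the AP-1 motif TGANTCA, the E-box CACGTG or the amino acid response motif TGATGNAA on either strand. Slc1a3 fell most, Slco4a1, Slc25a24 and Slc6a17 rose most.
Slc1a3, chr15:8710758-8711057, minus strand: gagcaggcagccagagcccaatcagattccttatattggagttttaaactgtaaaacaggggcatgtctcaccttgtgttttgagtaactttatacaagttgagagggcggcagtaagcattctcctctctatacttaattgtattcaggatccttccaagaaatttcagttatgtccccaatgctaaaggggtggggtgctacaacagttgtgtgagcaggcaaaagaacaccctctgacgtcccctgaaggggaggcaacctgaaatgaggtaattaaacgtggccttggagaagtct
Slco4a1, chr2:180455995-180456294, plus strand: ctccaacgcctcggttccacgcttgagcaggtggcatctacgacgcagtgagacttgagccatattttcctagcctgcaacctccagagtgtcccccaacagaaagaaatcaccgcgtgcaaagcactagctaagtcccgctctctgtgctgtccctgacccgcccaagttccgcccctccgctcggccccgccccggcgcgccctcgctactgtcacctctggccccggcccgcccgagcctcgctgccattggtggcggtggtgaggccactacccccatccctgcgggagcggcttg
Slc25a24, chr3:109122899-109123198, plus strand: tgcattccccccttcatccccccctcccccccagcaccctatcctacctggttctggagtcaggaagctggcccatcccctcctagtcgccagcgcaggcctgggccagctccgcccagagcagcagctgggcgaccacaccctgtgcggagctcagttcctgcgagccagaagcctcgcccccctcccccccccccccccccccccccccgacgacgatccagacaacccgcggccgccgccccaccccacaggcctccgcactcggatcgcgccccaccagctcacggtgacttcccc
Slc6a17, chr3:107517969-107518268, minus strand: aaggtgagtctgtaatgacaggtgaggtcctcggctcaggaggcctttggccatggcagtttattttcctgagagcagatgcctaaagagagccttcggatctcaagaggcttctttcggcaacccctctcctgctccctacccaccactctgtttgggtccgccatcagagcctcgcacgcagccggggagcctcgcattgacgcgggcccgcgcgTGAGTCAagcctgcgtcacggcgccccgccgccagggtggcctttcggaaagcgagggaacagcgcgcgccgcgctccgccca
A single AP-1 match lies in the Slc6a17 window, and the other 3 windows hold none of the motifs. The Slc1a3 window has a GC content of 45.3%, with 3 CpG dinucleotides. The Slco4a1, Slc25a24 and Slc6a17 windows have 65.3%, 72.3% and 63.7% GC, with 24, 19 and 26 CpG dinucleotides. The promoter table matched 72 of the 91 carriers in 98 windows. The AP-1 motif was in 5.1% of them and in 7.81% of all promoter windows. For the E-box the shares were 13.3% and 7.15%, and for the amino acid response motif 2.04% and 3.97%. Median GC content was 62.0% in the carrier windows and 52.7% in all windows, which were not limited to genes expressed here. How far base composition bears on the motif shares was not tested. The matches are of letters and are not sites of binding.

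Amino acid carriers held the deepest loss of all carriers and 1 of the 4 largest gains. Of 9 tested, 5 fell and 3 rose for the guides' mean (adjusted p under 0.05, limma), against 43.3% and 37.8% of all genes. The counts were the same with each guide alone. There 33.5% of all genes fell and 31.9% rose with guide 2, and 37.9% fell and 30.2% rose with guide 1. The median log2 fold change of the class was -0.27. Slc1a3, a sodium-driven importer of glutamate and aspartate, stood at 9.48, 10.8 and 10.1 FPKM with guide 2, 2.75, 2.43 and 3.22 FPKM with guide 1 and 41.4, 39.02 and 40.8 FPKM in the control. Every knockout library was below every control library, and guide 1 was lowest. The log2 fold change was -1.90 with guide 2 and -3.45 with guide 1 (SE 0.0764 for each, limma adjusted p = 1.25e-08 and 1.6e-10). Slc7a2, an importer of arginine, lysine and ornithine, had 18.8, 22.2 and 20.8 FPKM with guide 2, 4.85, 5.19 and 5.42 FPKM with guide 1 and 23.7, 24.4 and 22.03 FPKM in the control. Its fall of 1.99 log2 units with guide 1 (limma adjusted p = 2.68e-09) was clear of the control, while the guide 2 libraries overlapped it. The guide 2 value of -0.18 had a limma adjusted p = 0.0396, which lay between 0.052 and 0.139 when guide 1 replicate 2, guide 2 replicate 1 or 3, or control replicate 1 or 2 was left out.

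Slc15a4, a histidine and peptide carrier of lysosomes, averaged 6.35 ± 0.484 FPKM with guide 2, 7.98 ± 0.582 FPKM with guide 1 and 11.4 ± 0.519 FPKM in the control (SD, n = 3 each). Slc36a4 and Slc38a10 also fell, by 0.51 and 0.27 log2 units in the mean of both guides. Slc38a2, an importer of small neutral amino acids that is known to be induced by amino acid shortage, was the most abundant of the class, with 42.4, 49.3 and 49.8 FPKM with guide 2, 44.98, 46.5 and 51.05 FPKM with guide 1 and 41.7, 40.1 and 37.2 FPKM in the control. Its knockout libraries lay just above the control libraries, a log2 difference of 0.25 for the mean of both guides (SE 0.0642, limma adjusted p = 0.00497). With guide 2 alone its adjusted p lay between 0.0532 and 0.0585 without guide 2 replicate 2 or 3 or control replicate 3. Slc6a17, a neutral amino acid carrier of synaptic vesicles, had 1.95, 2.05 and 2.32 FPKM with guide 2, 1.53, 1.88 and 1.67 FPKM with guide 1 and 0.244, 0.252 and 0.184 FPKM in the control, and all knockout libraries were above the control libraries. Its log2 fold changes were 1.34 with guide 2 and 1.13 with guide 1 (SE 0.0824, limma adjusted p = 2.53e-07 and 7.07e-07), and 2.76 and 2.46 with 0.1 added in place of 1. Slc7a7, a light chain that exports cationic amino acids in exchange for neutral ones, rose by 0.41 log2 units from a low level. Slc6a17 and Slc7a7, with control means of 0.227 and 0.693 FPKM, reached the mean of 1 FPKM only through the knockout libraries. Slc38a7, a lysosomal exporter of glutamine and asparagine, had a log2 difference of 0.10 (limma adjusted p = 0.207).

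Slc2a1, Slc5a3 and Slc45a4 rose and Slc37a4 and Slc2a8 fell among the sugar carriers. Of 5 tested sugar carriers, 3 rose and 2 fell in the mean of both guides, against 37.8% and 43.3% of all genes. The median log2 fold change of the class was 0.44. Slc2a1, the basal glucose transporter of the plasma membrane, had 27.6, 28.4 and 29.4 FPKM with guide 2, 23.2, 22.6 and 22.9 FPKM with guide 1 and 14.3, 14.5 and 14.7 FPKM in the control. The 3 groups did not overlap, and guide 2 was highest. The log2 fold change was 0.93 with guide 2 and 0.63 with guide 1 (SE 0.0419, limma adjusted p = 2.76e-08 and 3.78e-07). Slc45a4, a member of a family of proton-coupled sugar carriers, averaged 9.60 ± 0.858 FPKM with guide 2, 5.89 ± 0.399 FPKM with guide 1 and 5.28 ± 0.147 FPKM in the control (SD, n = 3 each). Its guide 1 value did not pass (limma adjusted p = 0.113), though it did after quantile normalization (adjusted p = 0.0174) and trimmed mean rescaling (adjusted p = 0.0278). Slc5a3, the sodium-coupled myo-inositol importer, averaged 3.35 ± 0.132 FPKM with guide 2, 4.12 ± 0.316 FPKM with guide 1 and 2.15 ± 0.254 FPKM in the control (SD, n = 3 each), but it shares exon sequence with Mrps6 on the same strand, so its reads could be divided differently between the genes. Slc37a4, which brings glucose 6-phosphate into the endoplasmic reticulum, and Slc2a8, a hexose carrier of intracellular membranes, both fell by 0.40 log2 units in the mean of both guides. Summed over the class, the level was 48.1 ± 2.02 FPKM with guide 2, 39.6 ± 0.844 FPKM with guide 1 and 31.4 ± 0.397 FPKM in the control (SD, n = 3 each).

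Of 9 tested ion carriers, 8 fell and Slc20a2 rose in the mean of both guides, against 43.3% and 37.8% of all genes. The same 7 were called lower in both guides, against 26.2% of all genes. Guide 2 alone called 7 lower and guide 1 alone 8, against 33.5% and 37.9% of all genes. The median log2 fold change of the class was -0.34. Slc20a1, a sodium-phosphate cotransporter, had 11.8, 12.8 and 12.8 FPKM with guide 2, 22.02, 23.02 and 22.3 FPKM with guide 1 and 37.4, 36.9 and 34.97 FPKM in the control. The groups did not overlap, and guide 2 was lowest. The log2 fold change was -1.47 with guide 2 and -0.67 with guide 1 (SE 0.0485, limma adjusted p = 3.06e-09 and 6.52e-07). Its paralog Slc20a2, which carries the same ions, went the other way and averaged 18.6 ± 1.20 FPKM with guide 2, 15.1 ± 0.352 FPKM with guide 1 and 13.6 ± 0.640 FPKM in the control (SD, n = 3 each). That rise passed with guide 2 (limma adjusted p = 8.53e-05) and not with guide 1 (limma adjusted p = 0.0528), where it passed after quantile normalization (adjusted p = 0.0185), trimmed mean rescaling (0.0128) or the filter of 5 FPKM (0.0487), and when guide 2 replicate 1 (0.0267) or control replicate 3 (0.0267) was left out.

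All 3 tested cation-chloride cotransporters fell in the mean of both guides, against 43.3% of all genes. Slc12a2, which loads cells with sodium, potassium and chloride, had 10.9, 11.97 and 12.3 FPKM with guide 2, 7.50, 7.69 and 8.63 FPKM with guide 1 and 17.4, 16.4 and 16.2 FPKM in the control. The 3 groups did not overlap, and guide 1 was lowest, with log2 fold changes of -0.48 for guide 2 and -0.99 for guide 1 (SE 0.0646, limma adjusted p = 9.16e-05 and 3.27e-07). Slc12a9, a less characterized member of this family, averaged 5.20 ± 0.478 FPKM with guide 2, 6.47 ± 0.511 FPKM with guide 1 and 10.3 ± 0.645 FPKM in the control (SD, n = 3 each). Slc12a4, a potassium-chloride exporter and the most abundant ion carrier, averaged 28.4 ± 1.89 FPKM with guide 2, 24.1 ± 1.73 FPKM with guide 1 and 32.3 ± 1.10 FPKM in the control. Its guide 2 value of -0.18 (limma adjusted p = 0.0312) had adjusted p-values of 0.0627 to 0.110 without guide 2 replicate 1, control replicate 1 or control replicate 3. Slc4a2, a chloride-bicarbonate exchanger, fell by 0.34 log2 units and Slc26a2, a sulfate transporter, by 0.45 in the mean of both guides. Slc9a8, a sodium-proton exchanger of the Golgi, fell by 0.14 and passed with guide 1 but not with guide 2 (limma adjusted p = 0.0485 and 0.141). The summed level of the class was 106 ± 6.66 FPKM with guide 2, 102 ± 3.66 FPKM with guide 1 and 144 ± 2.75 FPKM in the control (SD, n = 3 each).

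**Figure D2:**
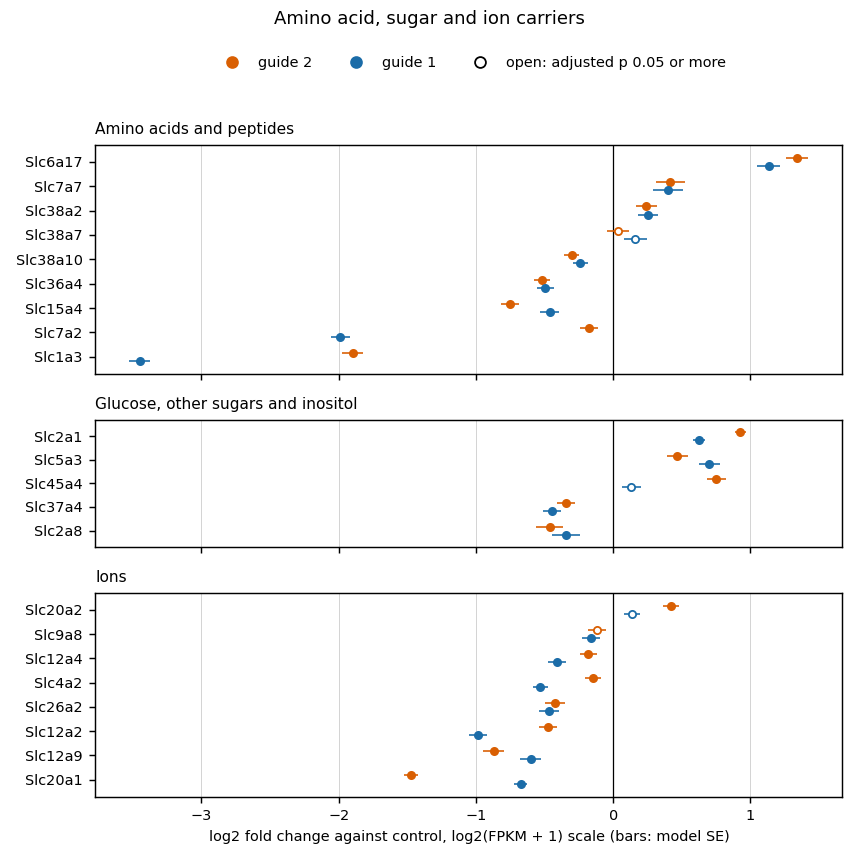
Log2 fold changes against the control of 9 amino acid, 5 sugar and 8 ion carriers on the log2(FPKM + 1) scale, with guide 2 above guide 1 for each gene and bars for the model SE. Filled points passed at an adjusted p under 0.05. The ion carriers plotted, other than Slc20a2, lie left of 0, and Slc1a3 lies farthest from it.

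No metal carrier changed by 1 log2 unit or more in the mean of both guides, and the heme carrier changed most. Of 15 tested, 9 fell and 3 rose in the mean of both guides, against 43.3% and 37.8% of all genes. The median log2 fold change of the class was -0.19. The count of lower genes was 5 without control replicate 1. Slc48a1, which moves heme out of endosomes and lysosomes, had 97.3, 99.7 and 98.03 FPKM with guide 2, 54.4, 52.98 and 57.9 FPKM with guide 1 and 43.5, 41.9 and 40.7 FPKM in the control. The groups did not overlap, and guide 2 was highest, with log2 fold changes of 1.21 for guide 2 and 0.38 for guide 1 (SE 0.0456, limma adjusted p = 7.91e-09 and 2.96e-05). Exons of Slc48a1 overlap Hdac7 on the opposite strand, and whether the authors' quantification used strand is not given in the sources used here. Slc31a1, the main copper importer of the cell surface, fell most among the metal carriers, with 12.4, 12.4 and 13.1 FPKM with guide 2, 14.5, 15.2 and 15.7 FPKM with guide 1 and 21.2, 20.9 and 19.4 FPKM in the control. All of its knockout libraries were below the control libraries.

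Of 5 Slc30 genes, which move zinc out of the cytosol, 4 fell and 1 rose, and of 5 Slc39 genes, which move it in, 3 fell and none rose in the mean of both guides, against 43.3% lower over all genes. Without control replicate 1, 2 Slc30 genes and 1 Slc39 gene were called lower. In that setting 5186 of the 6965 genes were called in either direction, against 5649 with all libraries. Guide 2 alone called 2 Slc30 and 2 Slc39 genes lower, and guide 1 alone 3 and 3, against 33.5% and 37.9% of all genes. Slc30a9, known for zinc in mitochondria, averaged 6.84 ± 0.0455 FPKM with guide 2, 5.57 ± 0.400 FPKM with guide 1 and 8.77 ± 0.453 FPKM in the control (SD, n = 3 each). Slc39a13, a zinc carrier of the Golgi and vesicles, averaged 21.7 ± 1.42 FPKM with guide 2, 24.9 ± 1.88 FPKM with guide 1 and 30.7 ± 1.13 FPKM in the control. The rise of the Golgi zinc carrier Slc30a6, 0.14 log2 units (limma adjusted p = 0.0324), lost its call without guide 2 replicate 2 or 3, guide 1 replicate 1 or 2, or control replicate 1 or 3, where adjusted p-values ran between 0.0504 and 0.139. Slc39a7, which releases zinc from the endoplasmic reticulum, was the most abundant metal carrier and spread widely within groups, with 83.1, 81.6 and 86.7 FPKM with guide 2, 73.2, 83.02 and 109 FPKM with guide 1 and 98.5, 72.2 and 72.9 FPKM in the control. It shares exon sequence with Gm20427 on the same strand. Its difference of 0.09 log2 units was smaller than that spread (limma adjusted p = 0.512). Among the magnesium carriers, Slc41a1 fell by 0.38 log2 units and Slc41a2 rose by 0.23, with 0.40 for guide 2 and 0.07 for guide 1. The remaining zinc genes called lower were Slc39a10, Slc30a1, Slc39a8, Slc30a5 and Slc30a4, with log2 fold changes between -0.23 and -0.16 in the mean of both guides. Tested by guide, Slc39a10, Slc30a1 and Slc30a5 passed with guide 1 only, and Slc39a8 and Slc30a4 with guide 2 only. Slc39a9 and Slc41a3 did not pass, at -0.10 and 0.13 (limma adjusted p = 0.0753 and 0.11).

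More of the mitochondrial Slc25 carriers were called higher than lower in the mean of both guides, but their most abundant members fell. Of 22 tested, 12 rose and 7 fell in the mean of both guides, against 37.8% and 43.3% of all genes, with a median log2 fold change of 0.18. With a minimum mean of 5 FPKM, 7 of 15 rose, against 39.7% of all genes with such means. Of the 7 that fell, only Slc25a40 had a mean under 5 FPKM (2.48), so the excess of rises was smaller there. Leaving out each library in turn gave between 9 and 12 higher and between 7 and 8 lower. The carriers that exchange ADP for ATP, Slc25a5 and Slc25a4, had the highest levels of all 91 genes. Slc25a5 had 258, 224 and 229 FPKM with guide 2, 239, 208 and 217 FPKM with guide 1 and 284, 284 and 323 FPKM in the control, and all knockout libraries were below the control libraries (log2 difference -0.37 in the mean of both guides, SE 0.0644, limma adjusted p = 0.000385). Slc25a4 fell by 0.30 log2 units, and Slc25a3, the phosphate carrier, by 0.18, the last with guide 1 (-0.34, limma adjusted p = 1.43e-05) and not with guide 2 (-0.02, limma adjusted p = 0.663). Slc25a5 and Slc25a4 are close in sequence and Slc25a5 has an annotated pseudogene, so their reads could be shared. The summed level of the class was 818 ± 30.3 FPKM with guide 2, 734 ± 30.8 FPKM with guide 1 and 874 ± 31.6 FPKM in the control (SD, n = 3 each).

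The calcium-regulated carriers of ATP-magnesium and phosphate moved in opposite directions in the mean of both guides. Slc25a24 had 34.9, 35.2 and 36.6 FPKM with guide 2, 24.8, 21.5 and 24.9 FPKM with guide 1 and 8.82, 9.02 and 8.49 FPKM in the control. The groups did not overlap, and guide 2 was highest, with log2 fold changes of 1.90 for guide 2 and 1.34 for guide 1 (SE 0.0604, limma adjusted p = 2.58e-09 and 2.02e-08). Its paralog Slc25a23 had 3.06, 3.05 and 3.04 FPKM with guide 2, 7.87, 8.10 and 8.45 FPKM with guide 1 and 9.86, 9.43 and 7.59 FPKM in the control. Guide 2 stood well below the other groups, at -1.29 log2 units against the control (limma adjusted p = 3.05e-07). Guide 1 overlapped the control at -0.12 (limma adjusted p = 0.224), and its adjusted p was 0.00574 without control replicate 3.

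Slc25a13, the aspartate-glutamate carrier that passes reducing equivalents into mitochondria, averaged 13.2 ± 0.235 FPKM with guide 2, 10.8 ± 0.952 FPKM with guide 1 and 7.02 ± 0.592 FPKM in the control (SD, n = 3 each). Slc25a30, Slc25a44, which carries branched-chain amino acids, and Slc25a32, a folate carrier, rose by 0.55, 0.54 and 0.49 log2 units in the mean of both guides. Slc25a20, which carries acylcarnitines into the matrix, had a log2 fold change of 0.69 with guide 2 (limma adjusted p = 0.000193) and 0.13 with guide 1 (limma adjusted p = 0.289). Slc25a51, the carrier of NAD, averaged 12.04 ± 0.183 FPKM with guide 2, 13.3 ± 0.691 FPKM with guide 1 and 18.3 ± 0.242 FPKM in the control (SD, n = 3 each), with every knockout library below the control libraries. The glutathione carriers Slc25a39 and Slc25a40 fell by 0.17 and 0.40, the second mainly with guide 1, where it averaged 1.61 ± 0.217 FPKM against 3.11 ± 0.1003 FPKM in the control. Slc25a45 had 0.633, 0.820 and 0.985 FPKM with guide 2, 3.34, 3.06 and 2.68 FPKM with guide 1 and 0.935, 0.676 and 0.811 FPKM in the control, with the guide 1 libraries above all others and the guide 2 libraries overlapping the control. It reached the mean of 1 FPKM only through those guide 1 libraries. Smaller rises in the mean of both guides, between 0.19 and 0.30 log2 units, passed for Slc25a37, an iron carrier, Slc25a17, a carrier of peroxisomes, Slc25a36, a carrier of pyrimidine nucleotides, and Slc25a29, a carrier of basic amino acids. Slc25a29 passed with neither guide alone (limma adjusted p = 0.0831 with guide 2 and 0.0874 with guide 1). Slc25a37 passed with guide 1 only, and Slc25a17 with guide 2 only. Slc25a10, Slc25a46 and Slc25a26 did not pass, at -0.09, -0.14 and 0.17 (limma adjusted p = 0.0902, 0.0541 and 0.0624).

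**Figure D3:**
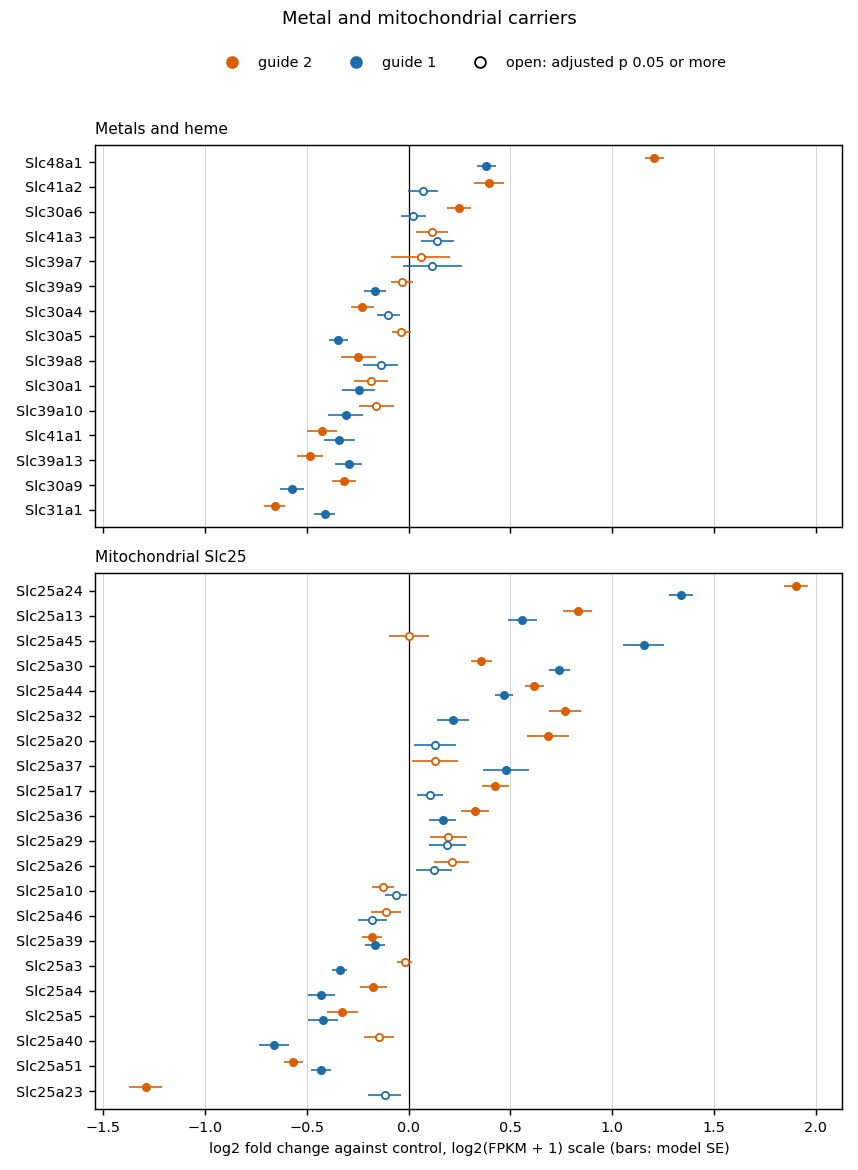
Log2 fold changes against the control of 15 metal and 21 mitochondrial carriers on the log2(FPKM + 1) scale, with guide 2 above guide 1 for each gene and bars for the model SE. Filled points passed at an adjusted p under 0.05. Slc48a1 and Slc25a24 lie farthest to the right for guide 2, and Slc25a23 is far to the left for guide 2 alone.

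Of 15 tested nucleotide sugar, nucleoside and nucleobase carriers, 10 fell and 3 rose in the mean of both guides, against 43.3% and 37.8% of all genes. Guide 2 alone called 7 lower and guide 1 alone 9, against 33.5% and 37.9% of all genes. The class had a median log2 fold change of -0.29 for the mean, and after rescaling by trimmed means 5 rose. Among the 12 Slc35 genes, 8 fell and 2 rose. Slc43a3, a carrier of purine nucleobases, had 9.94, 10.5 and 11.2 FPKM with guide 2, 4.57, 4.66 and 5.35 FPKM with guide 1 and 17.6, 16.7 and 15.8 FPKM in the control. The groups did not overlap, and the log2 fold change was -0.62 with guide 2 and -1.60 with guide 1 (SE 0.0680, limma adjusted p = 2.03e-05 and 1.32e-08). Slc35f5 averaged 12.7 ± 0.508 FPKM with guide 2, 20.4 ± 1.64 FPKM with guide 1 and 28.1 ± 3.25 FPKM in the control (SD, n = 3 each). Slc35a1, which brings CMP-sialic acid into the Golgi, fell by 0.47 log2 units. Slc35f6, Slc35c2, Slc35e3, Slc35a5, Slc29a3, Slc35a2 and Slc35b4 also fell, with log2 fold changes between -0.41 and -0.14, and Slc35e2 rose by 0.23. Of these, Slc35a2 passed with neither guide alone (limma adjusted p = 0.0729 with guide 2 and 0.0783 with guide 1). Slc35a5, Slc35b4 and Slc35e2 passed with guide 1 only. Slc35b2 and Slc35d1 did not pass, at 0.09 and 0.12 (limma adjusted p = 0.0999 and 0.0825). The sulfate donor carrier Slc35b3 rose and averaged 4.53 ± 0.304 FPKM with guide 2, 3.70 ± 0.242 FPKM with guide 1 and 2.53 ± 0.0904 FPKM in the control (SD, n = 3 each). Slc29a1, the main equilibrative nucleoside transporter and the most abundant of the class, had 69.2, 67.4 and 68.5 FPKM with guide 2, 64.9, 64.8 and 66.9 FPKM with guide 1 and 44.9, 44.98 and 47.8 FPKM in the control. Its knockout libraries were all above the control libraries, with no difference between guides that passed (0.06 log2 units, SE 0.0410, limma adjusted p = 0.24).

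Carriers of organic ions held the largest increase. Of 7 tested, 3 rose and 3 fell in the mean of both guides, against 37.8% and 43.3% of all genes. The median log2 fold change of the class was 0.28. Slco4a1, an organic anion carrier that takes up thyroid hormone and prostaglandins, had 1.07, 1.07 and 1.19 FPKM with guide 2 and 12.99, 13.6 and 14.4 FPKM with guide 1. In the control it was listed at 0 in replicates 1 and 2 and at 0.0101 FPKM in replicate 3. Each knockout library was above the control, and guide 1 was far above guide 2, with log2 fold changes of 1.07 for guide 2 and 3.87 for guide 1 (SE 0.0647, limma adjusted p = 2.23e-07 and 3.13e-11). With the control at or near 0 the size is set by the constant added before the log, and with 0.1 it was 3.55 for guide 2 and 7.06 for guide 1. The simple epithelium keratins given above were also highest with guide 1, and their part in this difference was not tested. Slc22a23, a carrier with no established substrate, had 2.11, 3.12 and 2.54 FPKM with guide 2, 6.72, 6.36 and 6.79 FPKM with guide 1 and 1.03, 1.22 and 1.47 FPKM in the control. Its log2 fold changes were 0.67 with guide 2 and 1.77 with guide 1. Slc16a13, of the monocarboxylate family, rose by 1.24 with guide 2 and 0.73 with guide 1. Slc22a5, the carnitine importer, and its neighbour in the family Slc22a4 fell by 0.55 and 0.25 log2 units in the mean of both guides. Slc10a3 averaged 8.95 ± 0.911 FPKM with guide 2, 12.4 ± 1.57 FPKM with guide 1 and 14.1 ± 1.85 FPKM in the control (SD, n = 3 each), and it overlaps Ubl4a on the same strand. Slc17a5, the lysosomal sialic acid exporter, did not pass for the mean of both guides (0.28 log2 units, limma adjusted p = 0.0512) but was higher with guide 1 (0.51, limma adjusted p = 0.00686).

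Of the 7 lipid, choline and vitamin carriers, 4 were lower and 1 higher with guide 2 than with guide 1 (limma adjusted p under 0.05). Over all genes, 23.3% were lower and 31.2% higher with guide 2. Compared with the control, 3 fell and 2 rose in the mean of both guides, against 43.3% and 37.8% of all genes. The median log2 fold change of the class was -0.12. Slc44a2, a choline carrier, had 8.08, 8.73 and 8.43 FPKM with guide 2, 16.9, 18.2 and 19.2 FPKM with guide 1 and 23.9, 23.997 and 22.8 FPKM in the control. Every group stood apart, and guide 2 was lowest. The log2 fold change was -1.38 with guide 2 and -0.37 with guide 1 (SE 0.0551, limma adjusted p = 1.14e-08 and 0.000165). Slc27a1, which takes up and activates long-chain fatty acids, had 9.61, 10.4 and 10.1 FPKM with guide 2, 19.6, 21.7 and 21.1 FPKM with guide 1 and 8.94, 9.29 and 7.73 FPKM in the control. Its guide 1 libraries were highest, with a log2 fold change of 1.18 (limma adjusted p = 1.4e-07). The guide 2 value was 0.20 (limma adjusted p = 0.0285), with adjusted p-values of 0.0709 to 0.0909 without guide 2 replicate 2 or 3 or control replicate 3. Slc27a3 was also higher with guide 1, at 0.625 ± 0.171 FPKM with guide 2, 2.31 ± 0.391 FPKM with guide 1 and 0.496 ± 0.0653 FPKM in the control (SD, n = 3 each), while Slc27a4 fell by 0.35 log2 units in the mean of both guides. Slc27a3 reached the mean of 1 FPKM only through its guide 1 libraries. Slc46a3, a lysosomal carrier, averaged 1.33 ± 0.227 FPKM with guide 2, 0.830 ± 0.0984 FPKM with guide 1 and 2.52 ± 0.227 FPKM in the control (SD, n = 3 each). The vitamin carriers Slc19a2, for thiamine, and Slc46a1, for folate, had differences of -0.07 and -0.12 log2 units (limma adjusted p = 0.271 and 0.282).

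The 2 remaining genes both rose in the mean of both guides, against 37.8% of all genes. Slc66a2 averaged 1.88 ± 0.250 FPKM with guide 2, 3.39 ± 0.183 FPKM with guide 1 and 1.07 ± 0.0651 FPKM in the control (SD, n = 3 each). Slc18b1, a vesicular polyamine carrier, had log2 fold changes of 0.31 with guide 2 and 0.01 with guide 1, and its rise of 0.16 for the mean (limma adjusted p = 0.0149) had an adjusted p of 0.051 without control replicate 2 and 0.0652 without control replicate 3.

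**Figure D4:**
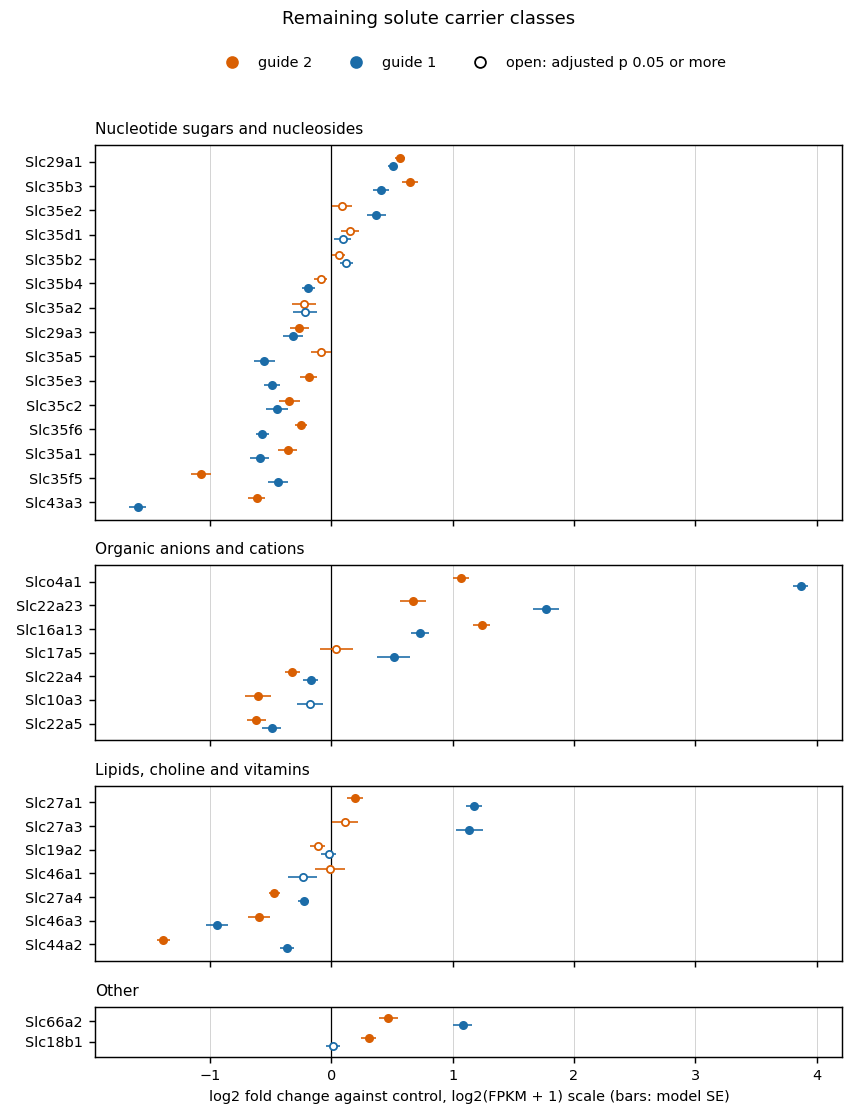
Log2 fold changes against the control of the 31 remaining carriers on the log2(FPKM + 1) scale, with guide 2 above guide 1 for each gene and bars for the model SE. Filled points passed at an adjusted p under 0.05. Slco4a1 with guide 1 lies farthest from 0.

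The guides were compared with each other in the same fit, where the control cancels. Guide 2 was higher than guide 1 in 31 carriers and lower in 23 (limma adjusted p under 0.05), and 37 did not pass, so 59.3% were called. Over all genes 54.5% were called, 31.2% were higher with guide 2 and 23.3% lower. At 1 log2 unit or more, 2 carriers were higher with guide 2 and 6 lower, against 2.3% and 2.71% of all genes. Slc7a2 and Slc1a3 were the 2 higher ones, by 1.81 and 1.55 log2 units (SE 0.0676 and 0.0764, limma adjusted p = 1.5e-08 and 9.45e-08). Slco4a1, Slc25a23, Slc25a45, Slc22a23, Slc27a3 and Slc44a2 were the 6 lower ones, led by Slco4a1 at -2.80 (SE 0.0647, limma adjusted p = 1.7e-09). Of these, Slco4a1, Slc25a45 and Slc27a3 reached the mean of 1 FPKM only through their guide 1 libraries. Their lower level with guide 2 is therefore tied to how members were chosen. Of the 53 carriers called with each guide separately, 36 also differed in size between them. The change was larger in guide 2 for 18 and in guide 1 for 18. The matching share among all genes called with each guide was not computed, so the 36 have no reference. Among the amino acid carriers Slc7a2, Slc1a3 and Slc15a4 passed between the guides. Slc6a17, at 0.21 (limma adjusted p = 0.0552), passed with a constant prior variance (adjusted p = 0.0227) and without guide 1 replicate 2 (adjusted p = 0.0405). The summed level of organic ion carriers was 40.4 ± 1.45 FPKM with guide 2, 58.3 ± 2.85 FPKM with guide 1 and 37.6 ± 3.58 FPKM in the control, and that of lipid, choline and vitamin carriers was 39.5 ± 1.13 FPKM with guide 2, 63.2 ± 3.13 FPKM with guide 1 and 59.8 ± 2.48 FPKM in the control (SD, n = 3 each).

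**Figure D5:**
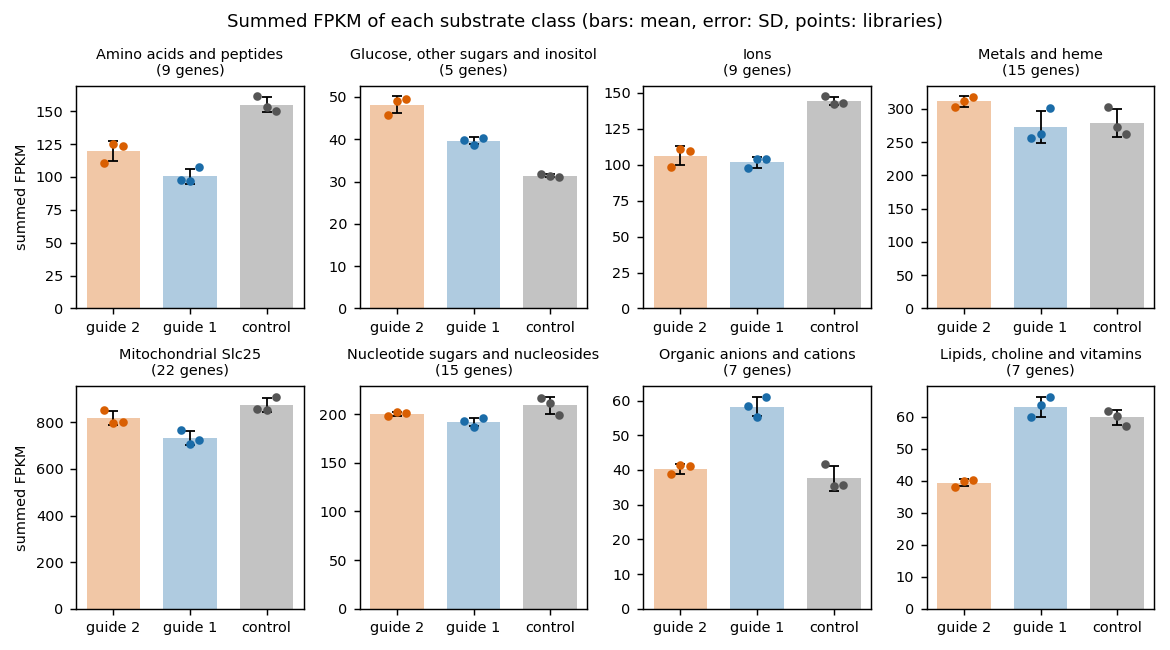
Summed FPKM of the members of 8 substrate classes, with guide 2, guide 1 and control from left to right. Bars are means of 3 libraries, error bars SD and points libraries. Ion carriers were lower and sugar carriers higher in every knockout library than in every control library, and organic ion carriers were highest with guide 1.

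Genes that work beside the carriers were taken from a list of 31, of which 18 had a row and 15 were tested. For the mean of the guides 8 rose and 6 fell, against 37.8% and 43.3% of all genes, with a median log2 fold change of 0.16. With guide 2 alone 8 rose and 4 fell, against 31.9% and 33.5% of all genes. With guide 1 alone 5 rose and 6 fell, against 30.2% and 37.9%. The sodium-potassium pump maintains the gradient that drives many of these carriers. Its beta subunit Atp1b1 averaged 49.3 ± 1.08 FPKM with guide 2, 56.8 ± 1.94 FPKM with guide 1 and 177 ± 25.9 FPKM in the control (SD, n = 3 each). Atp1b3, another beta subunit, averaged 79.4 ± 1.95 FPKM with guide 2, 49.2 ± 0.311 FPKM with guide 1 and 46.3 ± 1.48 FPKM in the control. Fxyd5, a regulator of the pump, rose most on the list, with 4.28, 4.08 and 4.28 FPKM with guide 2, 9.46, 7.42 and 8.20 FPKM with guide 1 and 0.345, 0.196 and 0.172 FPKM in the control. Oxsr1, a kinase that acts on the Slc12 cotransporters, rose by 0.58 log2 units, and the ferritin subunit Ftl1 by 0.51. Mpc1, a subunit of the mitochondrial pyruvate carrier, and Ldhb, a lactate dehydrogenase, fell with guide 1 and did not pass with guide 2 (limma adjusted p = 0.467 and 0.392). Mpc1 averaged 14.4 ± 1.20 FPKM with guide 2, 6.08 ± 0.613 FPKM with guide 1 and 15.2 ± 0.978 FPKM in the control, and Ldhb 34.2 ± 0.377 FPKM with guide 2, 8.95 ± 0.523 FPKM with guide 1 and 36.6 ± 4.85 FPKM in the control (SD, n = 3 each).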

How the data were processed

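Poly(A) RNA of the 9 libraries was sequenced in read pairs after a strand-preserving preparation, per the labels' protocols. The authors deposited 1 table of FPKM per gene and library, as its column headers show. Trimming, quality control, alignment and assembly tools named in the submitters' processing notes are cutadapt, FastQC, HISAT2 and StringTie, and tool versions, genome build and annotation were not given in the sources used here. It held 0 columns of per-sample values beyond these 9 libraries.

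The 174 rows that share 62 symbols were left out, none of them a solute carrier. Genes averaging at least 1 FPKM were transformed to log2(FPKM + 1) and modelled together with limma 3.58.1 (R 4.3.3), with the prior variance allowed to depend on the mean. A gene was called where its Benjamini-Hochberg adjusted p, taken over the 6965 genes, was under 0.05. Each ± is an SD over 3 libraries, and each SE is that of the fitted log2 difference. Sample titles gave the groups and the replicate numbers. Members, substrate classes (by gene family), partner genes and motifs were chosen with earlier results of these data known. Named carriers were, per main class, the most abundant one, the 3 largest called changes in each direction and the 2 largest called differences between guides, and for the other classes 1, 2 and 1. Partner genes were named by the 3 largest called changes in each direction. Other genes were chosen after their values were seen. A few genes are counted but not reported here by name.

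Simulated data had 200 of 6965 genes changed by 1 size in both guides. There the mean of both guides recovered 85% of changes of 0.5 log2 units and 95.5% of changes of 1. False calls made up 6.08% and 5.91% of the calls. In the real data 81.1% of genes were called, so these rates need not carry over. Alternatives were adding 0.1 in place of 1, testing every gene, testing only genes of 5 FPKM or more, quantile normalization, scaling to means that drop 30% at either end, the replicate number as a block, 1 prior variance for all genes, and dropping each library in turn. Exons of 30 of 90 matched carriers overlap another gene in GENCODE vM21 on GRCm38, on the opposite strand for 25 and on the same strand for 5. Promoter windows are from RefSeq on GRCm38.p6.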

Additional observations from a re-analysis of the deposited data

Results flagged for a closer look

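Of the carriers described, 8 differed between the guides by 1 log2 unit or more in a test of the difference itself, the guide 2 minus guide 1 comparison (limma, adjusted p under 0.05). Slc7a2 was higher with guide 2 than with guide 1 by 1.81 log2 units, and Slc1a3 by 1.55. Slco4a1 was lower with guide 2 than with guide 1, at -2.80. The differences were -1.17 for Slc25a23, -1.15 for Slc25a45 and -1.09 for Slc22a23, and -1.02 for Slc27a3 and -1.02 for Slc44a2. Over all genes 2.3% were higher and 2.71% lower with guide 2 by as much. Slco4a1, Slc25a45 and Slc27a3 reached the mean of 1 FPKM only through their guide 1 libraries, so their differences are tied to how members were chosen. With 0.1 added before the log in place of 1, Slc43a3 (1.10) and Slc27a1 (-1.04) also reached 1 log2 unit, and Slco4a1, Slc25a45 and Slc27a3 stood at -3.51, -1.79 and -1.75. Smaller differences between guides that passed the test are not listed here, and groups of 3 libraries were not searched for single outlying libraries.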

How the results depend on the processing

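The counts of carriers called higher and lower, overall and per class for the mean of both guides, were recomputed under 16 alternatives, and 12 of the 384 recomputed counts moved by over 1.5 times. Of these, 10 came from the filter of 5 FPKM, which leaves 58 of the 91 carriers. There 16 carriers were higher with guide 2, 13 with guide 1 and 17 in the mean of both guides, and 15 were lower with guide 2 than with guide 1. By class for the mean, this filter left 1 higher amino acid carrier, 1 higher lipid, choline or vitamin carrier, 7 higher mitochondrial carriers, 1 higher nucleotide carrier, 1 higher organic ion carrier and 0 lower sugar carriers. Trimmed mean rescaling gave 5 higher nucleotide carriers. Leaving out each library in turn gave between 5 and 9 lower metal carriers, the 5 without control replicate 1. Whether the replicate numbers pair the libraries was not settled. Same-numbered libraries deviated from their group means with correlations between -0.107 and 0.245, over 0.1 in 2 of 9 pairs. Those 2 were guide 1 with guide 2, at 0.245 for replicate 1 and 0.21 for replicate 3. Libraries with different numbers had correlations between -0.234 and 0.163. With the replicate block, 31 carriers were higher and 46 lower in the mean of both guides, 27 and 37 with guide 2, and 25 and 41 with guide 1, and Slc20a2 passed with guide 1 (limma adjusted p = 0.0335). Among 176 fold changes of 44 named carriers none reversed, 40 of 2756 recomputed values lost their call and 11 gained one. Guide 2 values of Slc7a2, Slc12a4 and Slc27a1 also lost their call without a filter on low values, and those of Slc7a2 and Slc12a4 after quantile normalization. Depth is unknown from FPKM, so the limits it sets on carriers with low values cannot be given.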
